A study of Mus musculus with 16 samples.

Results

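The 10 genes described here carry and receive signals of the transforming growth factor beta (TGF-beta) superfamily in mouse fat. They are the TGF-beta ligands Tgfb1, Tgfb2 and Tgfb3, the bone morphogenetic protein (BMP) ligands Bmp2 and Bmp4, and the BMP3-related ligand Gdf10. The others are the activin subunits Inhba and Inhbb and the receptors Tgfbr2 and Acvr1c. All 10 were taken by gene symbol from 32187 genes in all that have a row in at least 1 of the 2 expression tables. Each was measured in both fat depots. RNA sequencing had been done on 16 samples, 4 in each of 4 groups. The groups were gonadal fat of mice given an LCN2 vector, gonadal fat of mice given a GFP vector, subcutaneous fat of mice given the LCN2 vector and subcutaneous fat of mice given the GFP vector. Every mouse, GFP controls included, was labelled as a female Lcn2-null animal (B6.129P2-Lcn2tm1Aade/AkiJ, C57BL/6J background). Lipocalin-2, the product of Lcn2, is a secreted protein that binds bacterial siderophores and is made by fat and innate immune cells. The vectors were AAV8 viruses, injected into a vein at 8 weeks of age, that expressed LCN2 or green fluorescent protein from an adiponectin promoter, which is active in fat cells. A microRNA122 target sequence in the construct serves to degrade its transcript in liver. All mice then ate a HF/HS diet up to 16 weeks of age. The LCN2 groups thus model restored, promoter-driven expression in fat cells of a null animal and not the endogenous gene. The labels name no animal for a sample, so any p given here speaks only of the variation among these 16 samples.

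Ligands of this superfamily are dimers that bring together type I and type II receptor kinases on the cell surface, and the activated type I receptor phosphorylates Smad proteins that enter the nucleus. TGF-betas and activins act mainly through Smad2 and Smad3, and BMPs such as BMP2 and BMP4 through Smad1, Smad5 and Smad9. The branch that Gdf10 acts through was not measured here. In fat, TGF-beta is known for restraining the formation of fat cells and for fibrosis, BMP4 and BMP2 for committing precursors to the fat lineage, and the type I receptor ALK7, encoded by Acvr1c, for limiting fat breakdown in mature fat cells.

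The sequences just before the transcription start are shown for Gdf10 and Inhbb, the members with the largest negative and the largest positive difference between the vectors in gonadal fat. Each is the 250 bases before the start, from RefSeq on GRCm38.p6, read 5′ to 3′ on the strand of the gene, and capitals mark CAGAC, a short motif that Smad3 and Smad4 can bind, searched on both strands (CAGAC or GTCTG). Gdf10 lies on the plus strand with its window at chr14:33923337-33923586, and Inhbb on the minus strand with its window at chr1:119422249-119422498.
Gdf10: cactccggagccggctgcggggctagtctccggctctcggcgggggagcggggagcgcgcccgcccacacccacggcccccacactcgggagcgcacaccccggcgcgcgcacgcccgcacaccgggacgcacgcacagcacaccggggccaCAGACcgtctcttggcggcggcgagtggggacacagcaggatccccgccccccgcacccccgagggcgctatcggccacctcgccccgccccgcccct
Inhbb: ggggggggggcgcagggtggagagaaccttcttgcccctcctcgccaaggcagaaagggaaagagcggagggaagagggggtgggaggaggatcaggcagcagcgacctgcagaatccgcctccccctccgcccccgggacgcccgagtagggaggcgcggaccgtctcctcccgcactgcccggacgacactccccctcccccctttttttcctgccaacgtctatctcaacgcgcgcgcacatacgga
The Gdf10 window held 1 CAGAC, starting at position -98 from the start, and the Inhbb window held none. RefSeq windows were matched for 8 members, and Tgfb3 and Bmp2 were not among them. Tgfb2 held 2 matches and Tgfbr2 held 1, and the windows of Tgfb1, Bmp4, Inhba and Acvr1c held none. CAGAC was present in 42.2% of 32851 such windows of all genes, so a match is common and is a description of letters, not a site. GGCGCC, a GC-rich motif described for the BMP Smads, was in none of the 8 windows and in 9.59% of all windows. Guanine and cytosine made up 78.8% of the Gdf10 window and 68.0% of the Inhbb window, against a median of 52.4% (quartiles 45.2% and 61.2%) over all windows.

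Gonadal values are read counts that the authors had divided by 1 size factor per sample, called normalized counts here. The underlying reads, recovered from those values, numbered between 35173260 and 42890102 per gonadal sample, and 3 reads correspond to between 2.49 and 3.40 normalized counts, a limit that covers counting error only. Subcutaneous values are rlog, a log2 scale on which low genes are drawn towards their mean, and the depth behind them is unknown. The tables had been normalized separately, so every test was run within a depot. Lcn2 itself, the check of the vector, had every LCN2 sample above every GFP sample in both depots (exact permutation test, two-sided p = 0.0286 in each, the smallest that 4 against 4 samples can give). In gonadal fat Lcn2 had 186, 189, 522 and 481 normalized counts in LCN2 samples, against 103, 62.1, 70.0 and 89.5 in GFP samples, so the table lists Lcn2 above the 3-read limit in the GFP samples of mice labelled null too. In subcutaneous fat its rlog values were 8.49 to 9.82 with LCN2 and 7.76 to 8.37 with GFP. Some libraries stood apart from others of their group. Gonadal GFP sample 4 differed most from the other gonadal GFP samples, with a mean chi-square per degree of freedom of 157 to 216 against 45.7 to 123 for the other pairs within a group. Subcutaneous GFP samples 1 and 2 held the highest summed lymph node markers, 13.1 and 12.2 on the log2 scale, LCN2 sample 4 held 11.3, and the others held 8.59 to 8.96. Gonadal LCN2 samples 1 and 4 held the highest skeletal muscle markers (summed normalized counts of 6964 and 56536, against 1186 to 3487 in the others). Gonadal LCN2 samples 1 and 2 and GFP sample 1 held the highest hepatocyte markers (17478 to 47293, against 2058 to 5216). Fat cell markers were high in all gonadal samples, with summed normalized counts of 639590 to 773330 in the LCN2 group and 603240 to 862570 in the GFP group.

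The members ran from the 0.473th to the 89.4th percentile of expression in gonadal fat. Levels are compared between genes per kilobase of exon (GRCm38 annotation). In gonadal fat the median level over all 8 samples was 1051 normalized counts per kilobase for Acvr1c, 806 for the type II TGF-beta receptor gene Tgfbr2, and 695 for Inhbb, which encodes the subunit of activin B. These 3 genes stood at the 89.4th, 87.5th and 84.2th percentile of 19457 gonadal genes. A middle tier held Tgfb3 at 304, Tgfb1 at 299, Gdf10 at 165 and Bmp4 at 139 normalized counts per kilobase. Below it came Bmp2 at 64.0 and Tgfb2 at 54.3. Inhba, the subunit of activin A, was last at 1.90 normalized counts per kilobase, the 0.473th percentile, with 6 to 20 reads per sample. The sample ranges of neighbours in this order overlapped except between Bmp4 and Bmp2 and between Tgfb2 and Inhba. Between members that are not neighbours the ranges could be apart, as for Acvr1c, at 694 to 1199, and Tgfb3, at 223 to 413 normalized counts per kilobase.

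In subcutaneous fat, on the rlog scale minus log2 of the exon length in kilobases, Inhbb came first with a median of 9.82, followed by Tgfbr2 at 9.31 and Acvr1c at 9.26. Tgfb3 at 8.66 and Tgfb1 at 8.24 came next, then Gdf10 at 7.01, Bmp2 at 6.08, Bmp4 at 5.82, Tgfb2 at 5.28 and Inhba at 0.85. Here the ranges were apart between Tgfb1 and Gdf10, between Gdf10 and Bmp2, and between Tgfb2 and Inhba. Bmp4 stood at the 53.3th percentile in gonadal fat and at the 36.3th of 20211 genes in subcutaneous fat, while the other members differed by less than 10 percentile points between the depots. That difference was not tested, because the tables have separate scales.

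**Figure D1:**
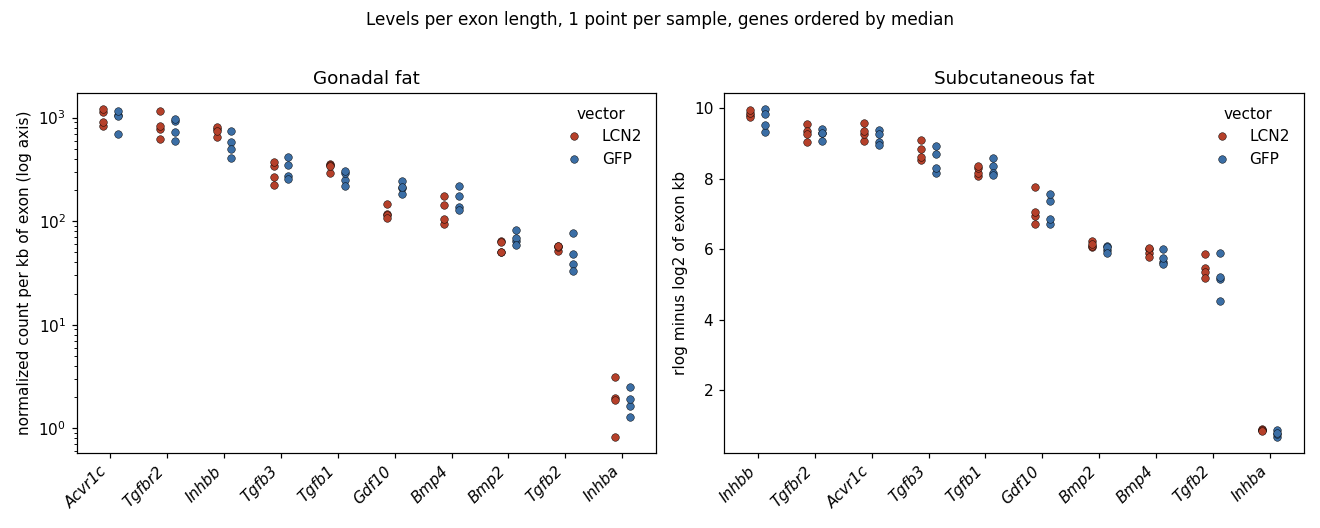
Level of each member per kilobase of exon in every sample, as normalized counts on a log axis for gonadal fat (left) and as rlog minus log2 of exon length for subcutaneous fat (right), with LCN2 points in red and GFP points in blue. Acvr1c, Tgfbr2 and Inhbb lie highest in both depots, and Inhba lies far below the rest, at a gonadal median of 1.90 against 54.3 for the next gene.

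In gonadal fat the clearest difference among the members was in Gdf10, a ligand also called BMP3b that is closest in sequence to BMP3 (14:33923587-33937983, plus strand). Gdf10 had 616, 601, 553 and 760.3 normalized counts in LCN2 samples 1 to 4, against 1275, 1093, 958 and 1123 in GFP samples 1 to 4. All 4 LCN2 samples were below all 4 GFP samples, and the nearest samples of the groups were LCN2 sample 4 and GFP sample 3. The mean was 633 ± 89.2 with LCN2 and 1112 ± 130.0 with GFP (SD, n = 4 each), a ratio of 0.569. On the scale of log2 of the normalized count plus 1, the difference was -0.82 ± 0.12 (SE, 95% interval -1.09 to -0.54), and with adjustment over 19536 genes it did not pass the threshold of 0.05 (limma, adjusted p = 0.0660, rank 28 by p). DESeq2 on the recovered reads called it, with -0.81 ± 0.14 and an adjusted p of 3.63e-06, but that test called 4.29% of all genes where limma called 0.102%. edgeR gave an adjusted p of 0.0792. Over the tested alternatives the adjusted p was between 3.63e-06 and 0.518 while the difference stayed between -0.94 and -0.70.

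Gdf10 is known as a gene of stromal cells in fat, which was not measured in this bulk tissue. Marker values of mesothelium and of fibroblasts and progenitors are given beside it. All 14 mesothelial markers had negative differences between LCN2 and GFP gonadal samples, with a median of -1.23, where 48.0% of all genes had negative ones. Limma called 0 of them, and 11 had an unadjusted limma p under 0.05, against 14.8% of all genes. Groups did not overlap for 7, all lower with LCN2, against 4.71% of all genes in that direction. Their summed normalized count was 3983 to 9418 in LCN2 samples and 8918 to 18384 in GFP samples, ranges that overlapped. Of the fibroblast and progenitor markers 4 of 10 had positive and 6 negative differences, and their sums were 48988 to 67446 with LCN2 and 40088 to 63325 with GFP. Of the gonadal markers that had a row, none was at 0 in all samples, and the mammary epithelium markers Csn3 and Wap had no row. The part of the mesothelial cover in the Gdf10 difference was not tested, and in bulk tissue fewer cells of a type and less RNA per cell cannot be told apart. Without the 3 samples highest in hepatocyte markers the difference was -0.70 ± 0.18, and without the 2 highest in muscle markers it was -0.94 ± 0.14. Gdf10 made up 36.0% to 42.6% of the summed level per kilobase of Gdf10, Bmp2 and Bmp4 in LCN2 samples. In GFP samples its share was 43.9% to 51.0%, and these ranges did not overlap and were not tested.

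The BMP ligands Bmp2 and Bmp4 had smaller differences. Bmp2 had 231, 224, 178 and 179 normalized counts in LCN2 samples, against 294, 231, 245 and 208 in GFP samples. All 4 LCN2 values were below the GFP median, although the ranges overlapped, and the difference was -0.27 ± 0.15 (limma, adjusted p = 0.438). Bmp4 had 212, 319.7, 238 and 394 normalized counts in LCN2 samples, against 390.4, 306, 288 and 488 in GFP samples. The groups overlapped, with GFP sample 4 highest, and the difference was -0.35 ± 0.23 (limma, adjusted p = 0.534). Gdf10, Bmp2 and Bmp4 thus all had negative estimates, of which none passed the threshold in limma.

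Tgfb1, the isoform made by many immune and stromal cells, had 1465, 1797, 1772 and 1710.1 normalized counts in LCN2 samples, against 1267, 1099, 1466 and 1546 in GFP samples. LCN2 samples 2, 3 and 4 were above every GFP sample, and LCN2 sample 1 lay within the GFP range. Its mean was 1686 ± 152 with LCN2 and 1344 ± 202 with GFP (SD, n = 4 each), a difference of 0.33 ± 0.12 (95% interval 0.06 to 0.61) that did not pass the threshold (limma, adjusted p = 0.255). Tgfb2 had 300.4, 332, 329 and 333 normalized counts in LCN2 samples, against 282, 222, 191 and 443 in GFP samples. The LCN2 samples lay close together, with a coefficient of variation of 4.79%, and the GFP samples were spread on both sides of them, with 39.5%, because sample 4 was the highest and samples 1 to 3 were below all LCN2 values. The difference was 0.26 ± 0.23 (limma, adjusted p = 0.661), and without GFP sample 4 it was 0.50 ± 0.14 (limma, adjusted p = 0.134). That removal was chosen after values were seen. Tgfb3 had 902, 1141, 755 and 1272 normalized counts in LCN2 samples, against 1186, 914, 869.7 and 1398 in GFP samples. The groups were interleaved, with a difference of -0.10 ± 0.20 (limma, adjusted p = 0.867), and 12.4% of the exonic bases of Tgfb3 are shared with genes on the opposite strand. The strand setting of the counting is not given in the sources used here, so reads of those genes cannot be told from reads of Tgfb3. Per kilobase, Tgfb1 made up 48.7% ± 4.97 of the 3 TGF-beta transcripts with LCN2 and 42.2% ± 5.44 with GFP, Tgfb3 43.2% ± 5.62 and 50.3% ± 4.20, and Tgfb2 8.15% ± 0.733 and 7.51% ± 1.62 (SD, n = 4 each). All 3 shares overlapped between the vectors.

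Inhbb had 2781, 3330.1, 3417 and 3131 normalized counts in gonadal LCN2 samples, against 2447, 1712, 3129.7 and 2109 in GFP samples. GFP sample 3 lay inside the LCN2 range, and the other GFP samples were below it. The mean was 3165 ± 283 with LCN2 and 2349 ± 601 with GFP (SD, n = 4 each), a difference of 0.46 ± 0.17 (95% interval 0.07 to 0.85) that did not pass the threshold (limma, adjusted p = 0.260). Inhba had 5.33, 20.2, 12.5 and 12.0 normalized counts in LCN2 samples, against 10.6, 12.2, 15.9 and 8.29 in GFP samples. These levels are only a few times the 3-read limit, and the interval of the difference, -0.92 to 0.91, leaves its size unresolved (limma, adjusted p = 0.997). Inhbb made up 99.6% to 99.9% of the 2 beta subunit transcripts per kilobase with LCN2 and 99.5% to 99.7% with GFP.

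Both receptors varied widely among samples of each group. Tgfbr2 had 9448, 6389.9, 6802 and 5025 normalized counts in LCN2 samples, against 7499, 5953, 4875 and 7930.1 in GFP samples. Its lowest and highest LCN2 samples enclosed nearly the whole GFP range, and the difference was 0.06 ± 0.21 (95% interval -0.42 to 0.55, limma, adjusted p = 0.928). Acvr1c had 7626, 8448, 10610.3 and 11141 normalized counts in LCN2 samples, against 9863, 9664, 10663 and 6445 in GFP samples. GFP sample 4 was the lowest and LCN2 sample 4 the highest, and the difference was 0.05 ± 0.19 (95% interval -0.37 to 0.47, limma, adjusted p = 0.930). Both intervals reach to either side of 0, so a modest difference was not detectable in these samples.

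**Figure D2:**
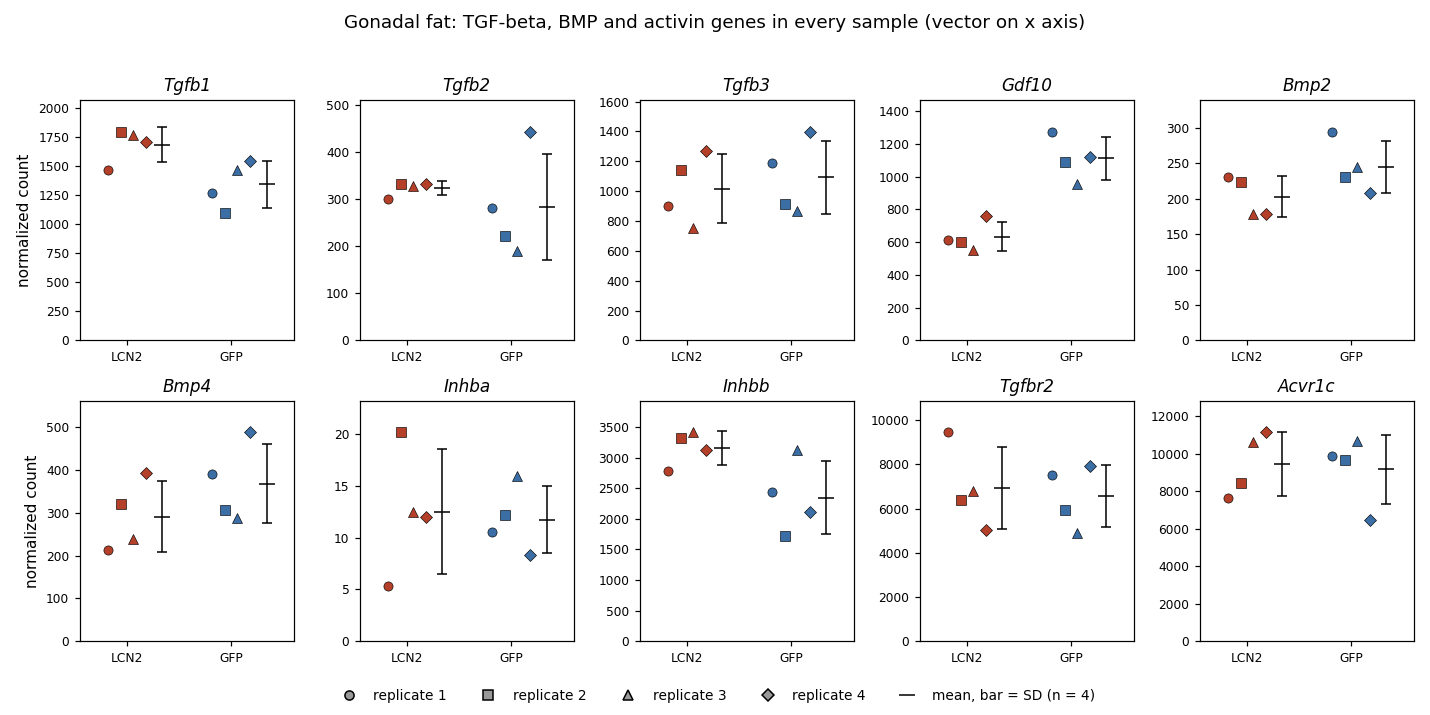
Normalized counts of the 10 members in each gonadal sample, LCN2 in red at the left and GFP in blue at the right of each panel, with the shape giving the replicate number and the black mark the mean with SD (n = 4). Gdf10 is the member whose groups are apart, at 553 to 760.3 with LCN2 and 958 to 1275 with GFP, and GFP sample 4 is the highest for Tgfb2, Tgfb3 and Bmp4 and the lowest for Acvr1c.

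Counted over the members, limma called 0 of 10 in gonadal fat, where it called 0.102% of all genes tested. DESeq2 called 1, which was Gdf10, where it called 4.29% of all genes, and edgeR called 0, where it called 0.0358%. At an unadjusted limma p under 0.05 there were 3 members, Gdf10, Tgfb1 and Inhbb, against 14.8% of all genes. Groups did not overlap for 1 of 10 members, against 9.11% of all genes, and that member, Gdf10, was lower with LCN2, against 4.71% of all genes in that direction. Differences were positive for 5 members and negative for 5, with a median of 0.02 beside 0.01 over all genes, of which 48.0% were negative.

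In subcutaneous fat no member had groups that were apart, where 7.08% of all genes did. Gdf10 had rlog values of 10.16, 9.09, 9.33 and 9.44 in LCN2 samples, against 9.08, 9.25, 9.74 and 9.96 in GFP samples. The groups covered the same range, and the difference was -0.00 ± 0.26 (95% interval -0.61 to 0.60, limma, adjusted p = 0.998). This interval overlaps that of gonadal fat, and whether the effect differs between the depots was not tested, since the tables have separate scales. Bmp2 had rlog values of 7.90, 7.93, 8.06 and 7.97 with LCN2, against 7.91, 7.80, 7.90 and 7.71 with GFP. Of its LCN2 samples 3 were above every GFP sample, and the difference was 0.13 ± 0.07 (limma, adjusted p = 0.429). Bmp4 had rlog values of 7.16, 7.05, 6.94 and 7.19 with LCN2, against 6.79, 6.75, 6.92 and 7.18 with GFP. GFP sample 4 was among the LCN2 samples and the other GFP samples were below them, with a difference of 0.17 ± 0.11 (limma, adjusted p = 0.483) that was 0.034 ± 0.12 without the lymph-node-rich GFP samples 1 and 2. Both BMP estimates were positive here and negative in gonadal fat, and none of these values passed the threshold.

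Tgfb1 had rlog values of 10.42, 10.51, 10.64 and 10.70 in LCN2 samples, against 10.91, 10.69, 10.49 and 10.44 in GFP samples. GFP samples 1 and 2, those with the highest lymph node markers, were the highest sample and the one just below LCN2 sample 4, and the difference of -0.06 ± 0.11 (limma, adjusted p = 0.806) was 0.11 ± 0.09 without them. Tgfb2 had rlog values of 8.39, 8.01, 7.89 and 7.71 with LCN2, against 7.07, 7.68, 7.74 and 8.42 with GFP. Tgfb3 had rlog values of 10.85, 10.59, 10.30 and 10.38 with LCN2, against 9.91, 10.06, 10.46 and 10.70 with GFP. In both genes GFP samples 1 and 2 were the lowest and GFP sample 4 was at or near the top. Their differences were 0.27 ± 0.27 for Tgfb2 (limma, adjusted p = 0.639) and 0.25 ± 0.19 for Tgfb3 (limma, adjusted p = 0.548), and without GFP samples 1 and 2 they were -0.080 ± 0.24 and -0.048 ± 0.16.

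Inhbb had rlog values of 11.90, 11.85, 11.95 and 12.04 in subcutaneous LCN2 samples, against 11.40, 11.62, 12.06 and 11.91 in GFP samples. The LCN2 samples lay within 0.19 of each other and GFP samples 1 and 2 below them, with a difference of 0.19 ± 0.13 (limma, adjusted p = 0.524) that was -0.049 ± 0.08 without those samples. Inhba had rlog values of 3.56, 3.57, 3.55 and 3.52 with LCN2, against 3.36, 3.53, 3.44 and 3.45 with GFP. At so low a level rlog values are drawn close together, and the difference of 0.10 ± 0.04 did not pass the threshold (limma, adjusted p = 0.341). Tgfbr2 had rlog values of 12.59, 12.07, 12.39 and 12.29 with LCN2, against 12.34, 12.45, 12.11 and 12.33 with GFP, and a difference of 0.03 ± 0.12 (limma, adjusted p = 0.933). Acvr1c had rlog values of 12.28, 12.47, 12.80 and 12.56 with LCN2, against 12.26, 12.19, 12.59 and 12.48 with GFP. Both receptors overlapped between the vectors, and for Acvr1c the difference was 0.15 ± 0.13 (95% interval -0.15 to 0.44, limma, adjusted p = 0.597).

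**Figure D3:**
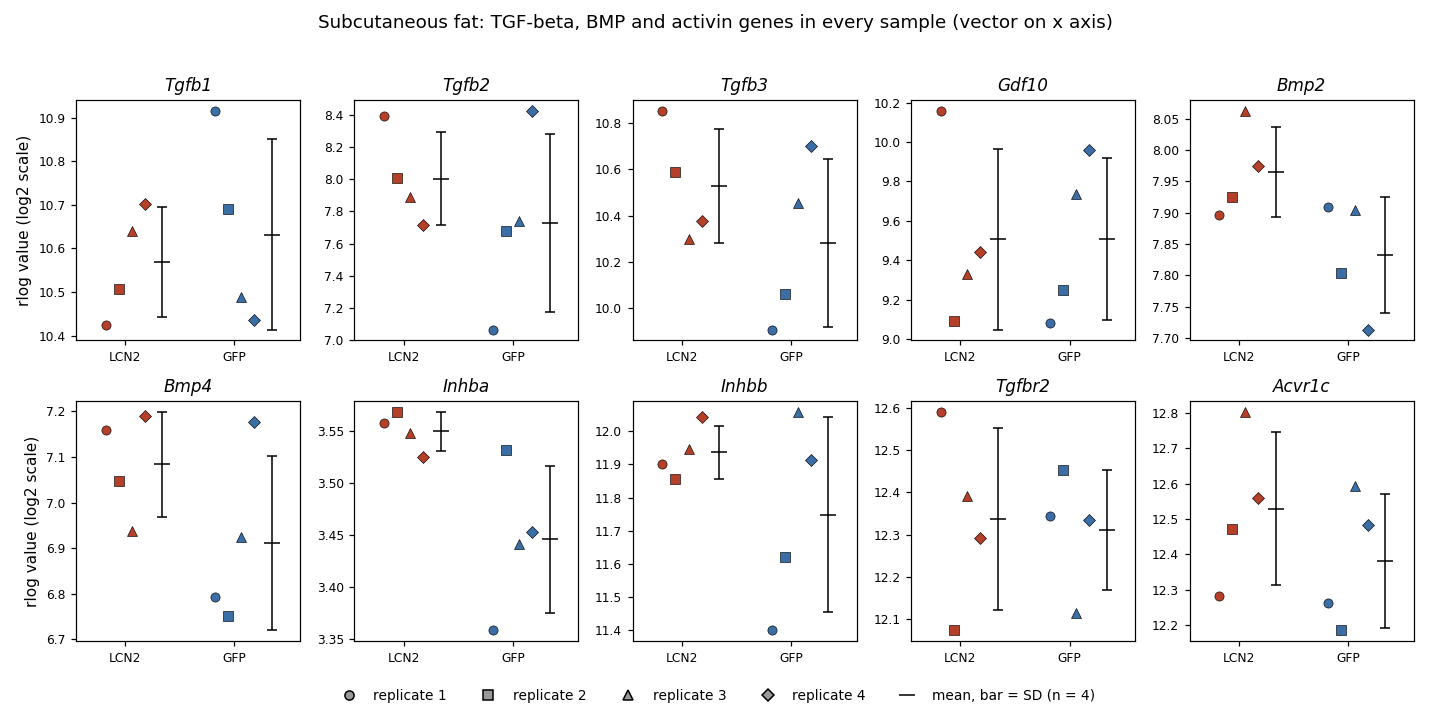
rlog values of the 10 members in each subcutaneous sample, LCN2 in red at the left and GFP in blue at the right of each panel, with the shape giving the replicate number and the black mark the mean with SD (n = 4). The groups overlap in every panel, and GFP sample 1 is the lowest of the 8 samples for Tgfb2, Tgfb3, Gdf10, Inhba and Inhbb.

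In subcutaneous fat limma called 0 of 10 members and 0% of 20302 genes, and no other tool was run on these values. At an unadjusted p under 0.05 there was 1 member, Inhba, against 14.0% of all genes. Differences were positive for 8 members and negative for 2, with a median of 0.14 beside -0.00 over all genes, of which 50.2% were negative. GFP sample 1 was the lowest of the 8 samples for 5 members and GFP sample 2 for 2. Without these 2 samples 5 members had positive and 5 negative differences, with a median of 0.01. The negative ones were Tgfb2, Tgfb3, Inhbb, Acvr1c and Gdf10, the last at -0.34 ± 0.27. Without GFP sample 4, a removal chosen after values were seen, 9 members had positive and 1 negative differences, with a median of 0.17. Tgfb2 was then at 0.51, Tgfb3 at 0.39, Bmp4 at 0.26, Inhbb at 0.24, Gdf10 at 0.15 and Tgfb1 at -0.13. The part of lymph node content in these values was not tested beyond the removal of GFP samples 1 and 2. LCN2 sample 4, at 11.3 for summed lymph node markers, was kept in that fit.

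**Figure D4:**
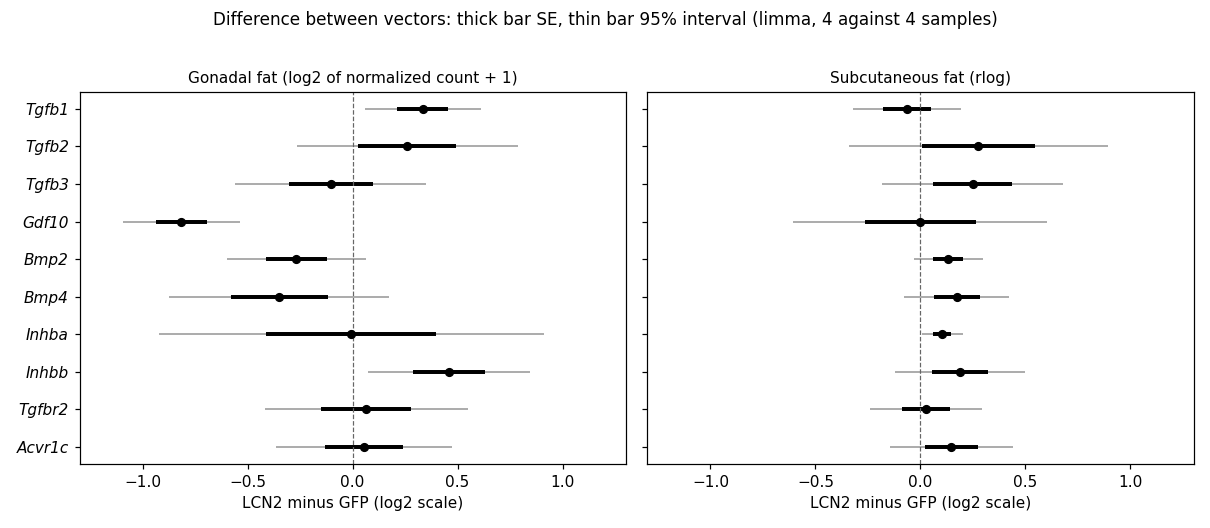
Difference between LCN2 and GFP for each member on the log2 scale in gonadal (left) and subcutaneous fat (right), with the point the estimate, the thick bar its SE and the thin bar the 95% interval. The gonadal interval of Gdf10 runs from -1.09 to -0.54 and lies farthest from 0, and the gonadal intervals of Tgfb1 and Inhbb lie just above 0.

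The 126 other genes of the pathway were read in 9 lists, of which 107 genes were tested in gonadal fat. Groups did not overlap for 8 of them that were higher and 6 that were lower with LCN2, against 9.11% of all genes in either direction. At an unadjusted limma p under 0.05 there were 26, against 14.8% of all genes. Of the 107 genes limma called 1, Vwc2, where it called 0.0614% of all genes as lower with LCN2. Vwc2 encodes brorin, a secreted protein that binds BMPs and blocks them. It had 16.0, 24.2, 11.3 and 15.0 normalized counts in LCN2 samples, against 84.4, 69.2, 53.0 and 68.0 in GFP samples. The groups were far apart, and Vwc2 fell by 2.01 ± 0.26 on the log2 scale (limma, adjusted p = 0.0457). The call was lost when any of LCN2 samples 1, 3 and 4 and GFP samples 1, 2 and 3 was left out, and edgeR gave an adjusted p of 0.0551. It was also lost with a replicate block, with scaling by library totals, without the muscle-rich samples and without the hepatocyte-rich samples, and with a mean of at least 50 required Vwc2 was not tested. The 14 mesothelial markers ran the same way, and their part in the Vwc2 difference was not tested. Among 14 tested antagonists 6 had positive and 8 negative differences, with a median of -0.14.

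In gonadal fat a receptor and a Smad regulator of the TGF-beta and activin branch had higher values with LCN2 that did not pass the threshold in limma or edgeR but passed in DESeq2. Over all genes DESeq2 called 4.29%, and groups did not overlap for 9.11%. Acvr1b, the activin type I receptor ALK4, had 1795, 1664, 1557 and 1787 normalized counts in LCN2 samples, against 828, 902, 835 and 1546 in GFP samples. Skil, which encodes SnoN, a repressor of Smad2 and Smad3 that the pathway itself induces, had 1338, 1286, 1413 and 1097 in LCN2 samples, against 698, 538, 637 and 1016 in GFP samples. In both genes the groups did not overlap, but GFP sample 4 was close to the LCN2 samples. The differences were 0.78 ± 0.19 for Acvr1b (limma, adjusted p = 0.158) and 0.86 ± 0.18 for Skil (limma, adjusted p = 0.131), and DESeq2 gave adjusted p of 0.0306 and 0.00529. Without GFP sample 4 both passed. Acvr1b was then at 0.99 ± 0.08 (limma, adjusted p = 0.00585) and Skil at 1.04 ± 0.12 (limma, adjusted p = 0.0264). That sample was left out after its values were seen to lie near the LCN2 samples, so these passes are a description only. The same fit called 47 genes higher and 19 lower over all genes, against 8 and 12 with all samples. Smad9, a transducer of BMP signals, had 64.9, 66.6, 40.8 and 68.2 normalized counts in LCN2 samples, against 128, 112, 80.6 and 157 in GFP samples. Its groups did not overlap, and the difference was -0.97 ± 0.25 (limma, adjusted p = 0.169; DESeq2, adjusted p = 0.0153). Bambi, a decoy receptor that blocks TGF-beta and BMP signals, averaged 131 ± 12.6 normalized counts with LCN2 and 186 ± 37.4 with GFP (SD, n = 4 each), a difference of -0.48 ± 0.16 with groups that did not overlap (limma, adjusted p = 0.222). The BMP coreceptor gene Rgmb was at -0.19 ± 0.07, also without overlap (limma, adjusted p = 0.250), and Amhr2, the receptor of anti-Mullerian hormone, at 0.88 ± 0.33 (limma, adjusted p = 0.266). Coreceptors had 4 positive and 4 negative differences of 8. Receptors as a list had 5 positive and 5 negative differences of 10, and Smads and their regulators 8 and 7 of 15.

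TGF-beta target genes had positive differences for 13 of 16 in gonadal fat, with a median of 0.40 beside 0.01 over all genes, and limma and edgeR called 0 of them. At an unadjusted limma p under 0.05 there were 4, against 14.8% of all genes. DESeq2 called 10 of the 107 pathway genes, where it called 4.29% of all genes, among them Acvr1b, Cdkn1a, Ltbp3, Mstn, Skil, Smad9 and Vwc2. Of these Mstn passed the filter on low values only through its LCN2 samples, so its call is a description only. The count of target genes with positive differences was 14 without GFP sample 4, 13 without the muscle-rich and 11 without the hepatocyte-rich samples. Cdkn1a, the cell cycle inhibitor p21, had 1789, 1882, 3120.3 and 2214 normalized counts in LCN2 samples, against 1434, 542, 1063 and 619 in GFP samples. All LCN2 samples were above all GFP samples, with a difference of 1.38 ± 0.31 (limma, adjusted p = 0.157). Pmepa1, a target that dampens Smad2 and Smad3 signalling, had 19271, 18198, 15475 and 17997 normalized counts in LCN2 samples, against 4779, 5061, 5611 and 16375 in GFP samples. GFP sample 4 lay inside the LCN2 range and the other GFP samples far below it. The difference was 1.36 ± 0.36 (limma, adjusted p = 0.176), and without GFP sample 4 it was 1.78 ± 0.10 (limma, adjusted p = 0.00230). That sample was left out after its values were seen, so this pass is a description only. Collagen gene Col1a1 averaged 25159 normalized counts with LCN2 and 14739 with GFP, a difference of 0.86 ± 0.31 (limma, adjusted p = 0.251). Endothelial markers had positive differences for 8 of 8, with sums of 40563 to 45821 in LCN2 samples and 20215 to 41549 in GFP samples. Smooth muscle and pericyte markers had 4 positive and 2 negative differences, and fibroblast and progenitor markers 4 and 6. The part of these cell types in the target gene values was not tested.

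Among the ligands outside the 10 members, 12 of 15 tested had positive gonadal differences, with a median of 0.41, where 48.0% of all genes had negative ones. Without the hepatocyte-rich samples 11 of 15 were positive, with a median of 0.17. Mstn, the muscle growth inhibitor myostatin, had 6.22, 32.3, 28.3 and 106 normalized counts in LCN2 samples, against 3.17, 5.09, 0 and 0.83 in GFP samples. The highest value was in LCN2 sample 4, the sample with the most skeletal muscle transcripts, and the difference was 3.50 ± 0.85 (limma, adjusted p = 0.158; DESeq2, adjusted p = 0.00151). Without the 2 muscle-rich samples, LCN2 1 and 4, it was 3.58 ± 0.80, and LCN2 sample 1 had the lowest Mstn value of its group. The GFP samples held 3, 5, 0 and 1 Mstn reads, near or below the 3-read limit. Mstn averaged 43.3 normalized counts with LCN2 and 2.27 with GFP, so it passed the filter of 10 only through the LCN2 samples. The size of its difference depends on that floor. Its p-values and its place among the 12 positive ligands are given as a description only. Gdf11, a close relative of myostatin, averaged 176 ± 10.7 with LCN2 and 129 ± 21.8 with GFP (SD, n = 4 each), a difference of 0.46 ± 0.14 with groups that did not overlap (limma, adjusted p = 0.199). Of the proteins that hold TGF-beta latent, Ltbp3 averaged 18066 ± 1817 normalized counts with LCN2 and 12540.1 ± 1702 with GFP, a difference of 0.53 ± 0.13 with groups that did not overlap (limma, adjusted p = 0.158; DESeq2, adjusted p = 0.00524). Itgb8, an integrin subunit that helps to free latent TGF-beta, was at -0.92 ± 0.31 (limma, adjusted p = 0.229), and the latency list had 9 positive and 6 negative differences of 15. BMP target genes had 5 positive and 3 negative differences of 8, among them Id1 at -0.39 ± 0.19 (limma, adjusted p = 0.395) and Runx2 at 0.73 ± 0.35 (limma, adjusted p = 0.367). Of 6 genes that ALK7 signalling is known to lower in fat cells, 2 had positive and 4 negative differences. Without GFP sample 4, a removal chosen after values were seen, all 6 were negative. Without the muscle-rich samples 3 were positive and 3 negative, and without the hepatocyte-rich samples 2 and 4. Adrb3, the beta3-adrenergic receptor, had 11616, 7552, 15752 and 12152 normalized counts in LCN2 samples, against 23873, 23457, 30699 and 8828 in GFP samples. GFP sample 4 again lay with the LCN2 samples, and the difference was -0.79 ± 0.38 (limma, adjusted p = 0.374), or -0.42 ± 0.53 without the hepatocyte-rich samples. A gene on the opposite strand shares 24.9% of the exonic bases of Adrb3, so its reads are uncertain. Pnpla2, the lipase that starts fat breakdown, was at -0.35 ± 0.22 (limma, adjusted p = 0.505).

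In subcutaneous fat 109 pathway genes were tested and limma called 0 of them, as of all genes. At an unadjusted p under 0.05 there were 26, against 14.0% of all genes. Differences were positive for 83 and negative for 26, and without the 2 lymph-node-rich samples for 60 and 49. TGF-beta target genes had positive differences for 16 of 16, with a median of 0.41, and without those 2 samples for 13, with a median of 0.14. Without GFP sample 4, a removal chosen after values were seen, 90 pathway genes had positive and 19 negative differences. Of all genes 50.6% were then positive. Target genes then had 15 positive differences of 16, with a median of 0.53. With all samples, endothelial markers had positive differences for 8 of 8 and lymph node markers negative differences for 8 of 8. Fibroblast and progenitor markers had 8 positive and 2 negative differences, smooth muscle and pericyte markers 5 and 1, and macrophage markers 6 and 0. Mesothelial markers had 2 and 9, and hepatocyte markers 0 and 8. Acta2 is in both the target and the smooth muscle list. The part of these cell types was not tested. Groups did not overlap for 1 target gene. That was Adamts1, a matrix protease gene, at 10.35, 10.65, 10.49 and 10.26 with LCN2, against 9.99, 9.58, 10.13 and 10.07 with GFP (difference 0.50 ± 0.13, limma, adjusted p = 0.308). Lox, the collagen crosslinking enzyme lysyl oxidase, averaged 12.67 ± 0.29 with LCN2 and 11.98 ± 0.51 with GFP (SD, n = 4 each, limma, adjusted p = 0.317). Groups did not overlap, and were higher with LCN2, for 5 of the 109 genes, against 3.81% of all genes in that direction.

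Secreted regulators were among those 5 genes. Htra1, a protease that binds TGF-beta family ligands, had rlog values of 12.83, 12.88, 13.08 and 12.73 in LCN2 samples, against 12.12, 12.14, 12.56 and 12.35 in GFP samples (difference 0.58 ± 0.12, limma, adjusted p = 0.308). Fstl3, a binder of activin, had rlog values of 6.58, 6.85, 6.90 and 6.66 with LCN2, against 5.81, 6.04, 6.52 and 6.40 with GFP. Its exonic bases are shared to 47.3% with genes on the opposite strand, so its reads are uncertain. Bgn, a matrix proteoglycan that binds TGF-beta, had rlog values of 13.54, 13.40, 13.59 and 13.43 with LCN2, against 12.67, 12.40, 12.89 and 13.39 with GFP. In each of these genes the lowest GFP values were in samples 1 and 2, those with the highest lymph node markers, and without these samples the differences were 0.42 ± 0.11 for Htra1, 0.29 ± 0.12 for Fstl3 and 0.35 ± 0.14 for Bgn. Without GFP sample 4 the differences were 0.60 ± 0.13 for Htra1, 0.62 ± 0.17 for Fstl3 and 0.84 ± 0.12 for Bgn. The difference of Bmp3 was 0.68 ± 0.24 (limma, adjusted p = 0.315) and that of Acvr1b 0.33 ± 0.11 (limma, adjusted p = 0.308). Acvrl1, the type I receptor ALK1, was at 0.28 ± 0.09 and Lefty1, an inhibitor of Nodal, at 0.16 ± 0.07 (limma, adjusted p = 0.308 and 0.355). The coreceptor genes Cd109 and Tgfbr3 were at 0.47 ± 0.18 and 0.29 ± 0.11 (limma, adjusted p = 0.326 each). Smad3 and its repressor Ski were at 0.18 ± 0.08 and 0.24 ± 0.09 (limma, adjusted p = 0.346 and 0.330), and Ltbp3 was at 0.44 ± 0.14 (limma, adjusted p = 0.308). Without the 2 lymph-node-rich samples these differences were smaller, at 0.25 for Bmp3, 0.24 for Acvr1b, 0.14 for Acvrl1, 0.11 for Lefty1, 0.22 for Cd109, 0.11 for Tgfbr3, 0.062 for Smad3, 0.098 for Ski and 0.23 for Ltbp3. Without GFP sample 4 they were larger, at 0.855 for Bmp3, 0.447 for Acvr1b, 0.367 for Acvrl1 and 0.165 for Lefty1. The others were then at 0.613 for Cd109, 0.366 for Tgfbr3, 0.245 for Smad3, 0.327 for Ski and 0.582 for Ltbp3. GFP sample 4 was left out after its values were seen, and none of these passed the threshold. Receptors had 9 positive differences of 10, Smads and their regulators 13 of 15, and antagonists 12 of 15, with a median of 0.26 for antagonists. Without the lymph-node-rich samples these counts were 7, 10 and 6, and the antagonist median was -0.017. Without GFP sample 4 they were 9, 13 and 13, and the antagonist median was 0.34. The BMP targets Id2 and Id3 had differences of opposite sign, -0.33 ± 0.15 and 0.20 ± 0.10 (limma, adjusted p = 0.380 and 0.390). Without the lymph-node-rich samples they were at -0.14 and 0.065, and without GFP sample 4 at -0.35 and 0.25. Adrb3 was at -0.36 ± 0.21 and Gpd1, a glycerol-3-phosphate dehydrogenase gene, at -0.46 ± 0.37 (limma, adjusted p = 0.464 and 0.565), and Gpd1 shares some exonic bases with a gene on the opposite strand. BMP targets had 6 positive and 4 negative differences of 10, and genes lowered by ALK7 had 2 and 4 of 6. Without the lymph-node-rich samples BMP targets had 3 and 7, and all 6 genes lowered by ALK7 had negative differences. Gpd1 was then at -0.29. Without GFP sample 4 BMP targets had 8 and 2, genes lowered by ALK7 had 2 and 4, and Gpd1 was at -0.73.

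**Figure D5:**
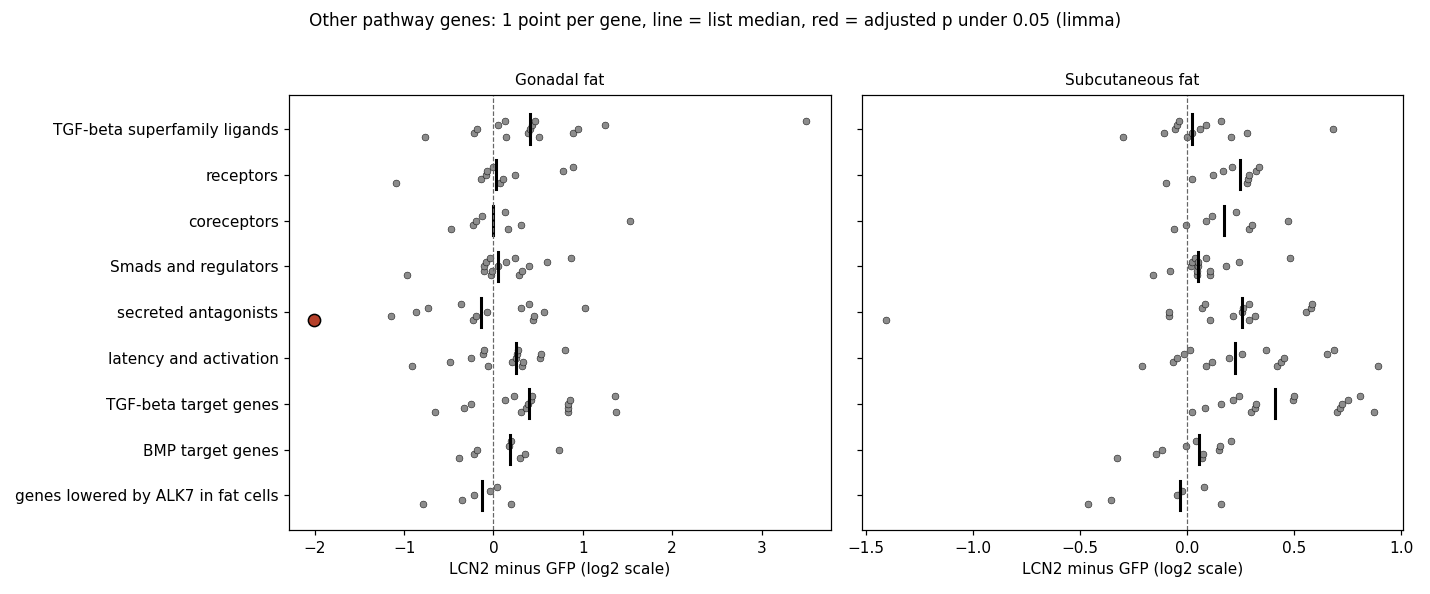
Difference between LCN2 and GFP on the log2 scale for every tested gene of the 9 pathway lists in gonadal (left) and subcutaneous fat (right), 1 point per gene, with a black line at the list median and red for an adjusted p under 0.05. Vwc2 at -2.01 is the only red point, and the median of TGF-beta target genes is 0.40 in gonadal and 0.41 in subcutaneous fat.

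The genes whose levels followed a member most closely were taken from 19109 genes tested in both depots, by the lower of the Pearson correlations over the 8 gonadal and the 8 subcutaneous samples. These values are the highest of that many, share the libraries and include any difference between the vectors, and are given as a description. Gdf10 was followed most closely by Twsg1, a BMP-binding protein gene that is in the antagonist list, with r = 0.877 in gonadal and 0.878 in subcutaneous fat. Next for Gdf10 was Osr1, a transcription factor gene, with 0.860 and 0.878. Tgfb2 was followed by Mpzl1 with 0.957 and 0.97, and Tgfb1 by Ppp1r18 with 0.965 and 0.953. Acvr1c was followed by Hipk2 with 0.937 and 0.950, Inhbb by Plcb3 with 0.931 and 0.963, and Tgfbr2 by St3gal1 with 0.974 and 0.887. For Bmp4 the closest gene was Tmem200b with 0.896 and 0.928. Bmp2 and Inhba had weaker best matches, Gm16072 with 0.789 and 0.783 for Bmp2 and Dstyk with 0.83 and 0.85 for Inhba.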

How the data were processed

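Groups and replicate numbers were read from the labels, whose protocols give a kit that keeps strand for the mRNA libraries. The submitters' processing notes name HISAT2, DESeq2, GRCm38 and mm10, without versions. The counting step and its strand setting are not described there. The gonadal table deposited by the authors holds a signal per gene, namely read counts scaled by a factor for each sample. Undoing that factor gave whole reads for 100% of values (tolerance 1e-06). The subcutaneous table deposited by the authors holds rlog, a log2 value. A symbol was found for 30144 of 30325 gonadal and 30760 of 30946 subcutaneous genes.

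The test was limma 3.58.1 in R 4.3.3 with a trend. It was run on log2(normalized count + 1) for gonadal genes averaging 10 or more, and on rlog for subcutaneous genes averaging 3 or more. Both scales understate changes of low genes. Each difference is the LCN2 mean less the GFP mean, with its SE where no SD is named. Tests are two-sided, and Benjamini-Hochberg adjustment ran over all genes tested (threshold 0.05). On the recovered reads, DESeq2 1.42.0 and edgeR 4.0.16 served as alternatives. Scripts were checked on simulated data. All members and Lcn2 are named, and of each pathway list and depot every called gene or else those 2 with the smallest p. Col1a1, Pmepa1 in subcutaneous fat and the comparison of GFP sample 4 were chosen after values were seen. The gene closest to Tgfb3 is not reported here. Members and lists were chosen with earlier results of these data known.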

Additional observations from a re-analysis of the deposited data

Results flagged for a closer look

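Among 114 groups of 4 samples tested for the members and the named gonadal and subcutaneous pathway genes, 4 held a sample whose gap to the nearest other sample was large for the range of its group. Chance alone gives about 1 in 20. Acvr1b in gonadal GFP sample 4 was 1546 normalized counts, against 828 to 902 in the other GFP samples. Pmepa1 in the same sample was 16375 normalized counts, against 4779 to 5611 in the other GFP samples. Smad9 in gonadal LCN2 sample 3 was 40.8 normalized counts, against 64.9 to 68.2 in the other LCN2 samples. Tgfb2 in gonadal LCN2 sample 1 was 300.4 normalized counts, against 329 to 333 in the other LCN2 samples. That last gap is narrow in counts, since the coefficient of variation of Tgfb2 over the LCN2 samples was 4.79%.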

How the results depend on the processing

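Of 328 recomputed member differences, 295 kept the direction and the side of the threshold, 32 reversed sign and 1 gained a call. Gonadal Gdf10 passed under DESeq2, -0.81 with an adjusted p of 3.63e-06, so that members called were 1. Gonadal pathway genes called were 1 by limma, 10 by DESeq2, 0 by edgeR, 0 with scaling by library totals, 0 with a mean of at least 50, 0 with a replicate block, 0 without the muscle-rich and 0 without the hepatocyte-rich samples, and 0 to 4 with each sample left out. The cause was not tested, except that fewer samples or genes were tested by construction. Over all gonadal genes limma called 8 higher and 12 lower, DESeq2 444 and 374, edgeR 4 and 3, library totals 4 and 2, a mean of at least 50 gave 5 and 6, the fit without muscle-rich samples 2 and 2, those with a replicate block or without hepatocyte-rich samples 0, and the fit without GFP sample 4 gave 47 and 19. Reversed gonadal values were -0.068 for Tgfbr2 without hepatocyte-rich samples, and for Inhba 0.092 by DESeq2, 0.090 by edgeR, 0.015 with a pseudocount of 5, 0.44 without muscle-rich and 0.055 without hepatocyte-rich samples. With each sample left out the gonadal ranges were -0.22 to 0.030 for Tgfb3, -0.10 to 0.21 for Tgfbr2, -0.26 to 0.32 for Inhba and -0.11 to 0.15 for Acvr1c. Reversed subcutaneous values without the lymph-node-rich samples were 0.11 for Tgfb1, -0.080 for Tgfb2, -0.048 for Tgfb3, -0.049 for Inhbb and -0.0097 for Acvr1c. Tgfbr2 was -0.013 with quantile normalization and -0.087 with sample weights, and Gdf10 0.062 with sample weights. With each sample left out the subcutaneous ranges were -0.13 to 0.030 for Tgfb1, -0.058 to 0.11 for Tgfbr2 and -0.22 to 0.15 for Gdf10. Inhba had no value under the stricter filters. The replicate numbers were not taken to pair the samples, since the deviations of same-numbered gonadal samples correlated at 0.25, -0.36, 0.42 and 0.02 and those of subcutaneous samples at -0.11, -0.33, 0.34 and -0.36. With a replicate block Gdf10 was -0.82 with an adjusted p of 0.134, and 0 members were called in either depot. Depth limits Inhba, at 6 to 20 reads per gonadal sample.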

Other observations

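GFP sample 4 stood with the LCN2 samples for several genes of the TGF-beta and activin branch, in both depots, but far from them for other pathway genes. In gonadal fat its Cdkn1a was 619 normalized counts, against 1789 to 3120.3 in LCN2 samples. Smad9 at 157, Bambi at 237 and Itgb8 at 147 were farther from the LCN2 samples in GFP sample 4 than in any other GFP sample. In subcutaneous fat Pmepa1 had rlog values of 13.55, 13.79, 13.55 and 13.43 in LCN2 samples, against 12.09, 12.21, 12.57 and 13.96 in GFP samples 1 to 4. GFP sample 4 was thus the highest of the 8 subcutaneous samples, and in gonadal fat its 16375 normalized counts lay between 15475 and 19271, the range of the LCN2 samples. Acvr1b in subcutaneous GFP sample 4 was 10.56, against 10.50 to 10.63 in LCN2 samples and 10.07 to 10.17 in the other GFP samples. Ltbp3 in subcutaneous GFP sample 4 was 13.78, against 13.69 to 13.85 in LCN2 samples and 13.10 to 13.33 in the other GFP samples. Some cell type markers of that sample ran the same way and others did not. In gonadal fat the summed smooth muscle and pericyte markers of GFP sample 4 were 46707 normalized counts, against 28929 to 45913 in LCN2 samples and 13008 to 28496 in the other GFP samples. In subcutaneous fat its smooth muscle and pericyte sum was 14.75 on the log2 scale, against 14.58 to 14.95 in LCN2 samples and 13.97 to 14.39 in the other GFP samples. Its subcutaneous endothelial sum was 14.92, against 14.81 to 15.00 in LCN2 samples and 14.12 to 14.42 in the other GFP samples. Other lists lay away from the LCN2 samples. The gonadal mesothelial sum of GFP sample 4 was 18384, against 3983 to 9418 in LCN2 samples and 8918 to 12046 in the other GFP samples. Its gonadal fibroblast and progenitor sum was 40088, against 48988 to 67446 in LCN2 samples. In subcutaneous fat that sum was 14.66, against 15.14 to 15.72 in LCN2 samples. The part of these cell types in the values of GFP sample 4 was not tested. Lcn2 itself in GFP sample 4 was 89.5 normalized counts in gonadal fat, against 186 to 522 in LCN2 samples. In subcutaneous fat its Lcn2 rlog value was 8.37, the highest of the GFP samples, against 8.49 to 9.82 in LCN2 samples. The labels do not say whether sample 4 of each depot came from the same mouse, and these genes were chosen after their values were seen.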
